A study of Mus musculus with 5 samples.

Results

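The binding sites of IRF4 and of IRF8 were compared in mouse B cells after 48 h of culture with lipopolysaccharide (LPS), a bacterial cell wall component that activates B cells through a Toll-like receptor. The sites were taken as the peaks of 2 deposited lists from chromatin immunoprecipitation with sequencing (ChIP-seq), 1573 peaks for IRF4 and 234 for IRF8. Peaks of the 2 lists that overlapped by at least 1 bp counted as 1 shared place, and the others as peaks of IRF4 alone or of IRF8 alone. This gave 1685 places, made from 1807 of the 5590 peaks in the 5 lists of the series: 122 shared places, 1451 peaks of IRF4 alone and 112 peaks of IRF8 alone.

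Both libraries came from naive B cells of the spleen of wild type C57BL/6 mice that were activated in vitro with 10 μg/ml LPS for 48 h. One was made with an anti-IRF4 antibody (Santa Cruz, M-17) and the other with an anti-IRF8 antibody (Santa Cruz, C-19). Each factor had 1 library at this time, so no value has a replicate check, and each test compares these 2 libraries and not the factors. The cells of one culture can hold a mixture of states, and no input, isotype or knockout library was analysed here, so the part of each list that an antibody would recover without its factor was not tested. Peak lists hold no expression, and cell type markers could not be read from them. The series further held IRF4 and IRF8 lists after 72 h of the same culture and an IRF8 list from germinal centre (GC) B cells sorted on day 13 after immunization with NP-KLH, for which the anti-IRF8 antibody was the same. These served as libraries that took no part in the choice of places.

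IRF4 and IRF8 are close relatives in the interferon regulatory factor family. Each binds weakly to DNA alone and is recruited by partners to composite elements: with PU.1 or SPIB at the ETS-IRF composite element (EICE), with BATF and JUN proteins at the AP-1-IRF composite elements (AICE), or with another IRF at the interferon-stimulated response element (ISRE). In B cells IRF4 is known for its role in plasma cell formation and class switching, and IRF8 for its role in the germinal centre and in antigen presentation.

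The sequences below show the elements on which the comparison turns, chosen among the highest single-copy peaks that hold each element, and each is named for the gene with the nearest transcription start site (TSS). The motifs were spelled as TGACTCA for AP-1, as GAAA directly before an AP-1 site for AICE1 and as TTTC, 4 bases and an AP-1 site for AICE2. The EICE was GGAA, 2 bases and GAAA, and the ISRE core was GAAA, 2 bases and GAAA. All motifs were searched on both strands, with either middle base of AP-1, every AICE holds an AP-1 site, and an EICE and an ISRE can overlap. Capitals mark the motif, coordinates are those of mm9, and minus strand sequences are shown as the reverse complement. The first group shows peaks of IRF4 alone, with an AP-1 site, an AICE1, 2 EICEs whose middle bases are CT and 1 EICE with GT.
Grap (chr11:61458213-61458259, plus strand): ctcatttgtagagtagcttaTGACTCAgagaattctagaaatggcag
Enpp6 (chr8:48026825-48026875, plus strand): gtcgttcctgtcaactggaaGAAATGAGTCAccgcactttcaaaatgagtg
Il15 (chr8:84940697-84940746, minus strand): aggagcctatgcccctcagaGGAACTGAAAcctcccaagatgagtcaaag
Heg1 (chr16:33745739-33745788, plus strand): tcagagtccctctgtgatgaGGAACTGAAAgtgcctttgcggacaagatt
Bach2 (chr4:32445735-32445784, minus strand): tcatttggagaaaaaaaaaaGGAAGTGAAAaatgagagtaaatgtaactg

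The next group shows places shared by both factors, first 2 places with an AICE2, then 2 EICEs with CT and 1 with GT between GGAA and GAAA.
Tcfeb (chr17:47905757-47905811, minus strand): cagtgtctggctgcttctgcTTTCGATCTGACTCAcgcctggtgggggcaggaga
Cd83 (chr13:43856675-43856729, minus strand): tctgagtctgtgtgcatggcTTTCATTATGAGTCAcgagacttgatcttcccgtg
Pax5 (chr4:44684053-44684102, plus strand): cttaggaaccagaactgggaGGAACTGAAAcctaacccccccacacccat
Myc (chr15:61831305-61831354, plus strand): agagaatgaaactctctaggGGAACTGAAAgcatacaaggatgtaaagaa
Apoh (chr11:108109865-108109914, minus strand): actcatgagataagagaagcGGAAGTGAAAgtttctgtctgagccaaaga

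The last group shows peaks of IRF8 alone, first 2 ISREs at promoters, then 2 EICEs with GT between GGAA and GAAA.
Erap1 (chr13:74777287-74777316, minus strand): gcccgggaccGAAAGTGAAAgtgaaggtgg
Rhebl1 (chr15:98712019-98712068, plus strand): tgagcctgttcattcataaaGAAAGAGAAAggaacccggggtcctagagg
Ascc1 (chr10:59443718-59443767, minus strand): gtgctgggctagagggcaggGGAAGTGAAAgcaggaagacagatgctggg
4931440P22Rik (chr3:65319908-65319957, minus strand): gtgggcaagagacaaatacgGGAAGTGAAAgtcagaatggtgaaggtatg

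The IRF8 library was the deeper one and gave the shorter list. It held 4375858 tags, of which 8004 (0.18%) lay in peaks, against 3396941 tags with 27716 (0.82%) in peaks for IRF4, per the file headers. Peak heights are given below as normalised tags, the authors' count per 10000000 tags of a library, in which 1 tag is worth 2.94 for IRF4 and 2.29 for IRF8. The lowest peaks of the lists rested on 8 tags (23.6 normalised) and 9 tags (20.6 normalised). The 20 highest peaks of either list lay mostly in repeated or unplaced sequence (16 of 20 in each list) and held 17.9% of the IRF4 and 62.5% of the IRF8 peak tags. Both lists were headed by a peak at Gm10800, a predicted gene, of 4651.2 for IRF4 and 3631.3 for IRF8. Peaks were therefore also examined without those in mostly repeated sequence. In 1494 IRF4 and 177 IRF8 placed peaks, the median word of 24 bases within 100 bp of the centre occurred once in the genome. These are called single-copy below, and parts of such a peak can still be repeated.

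IRF8 peaks lay at places of IRF4 far more often than the reverse, as the lengths of the lists allow. The 122 shared places were 52.1% of the IRF8 list (95% exact interval 45.5 to 58.7) and 7.76% of the IRF4 list (6.48 to 9.19). Intervals of shares here and below are Clopper-Pearson intervals, and they cover counting error only. Among single-copy peaks, 89 places were shared by peaks that were single-copy in both lists, 5.96% of the IRF4 list. The 2 centres of such a place lay a median of 30 bp apart, and at most 50 bp apart at 64 of the 89 places. The overlaps were deep, with the smallest at 276 bp of the 500 bp peaks, or 183 bp with repeated sequence included.

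Few peaks lay just outside this overlap rule. The closest pair that did not overlap in single-copy sequence lay in an intron of Pou2f2, which encodes the octamer-binding factor OCT2 of B cells: an IRF8 peak of 27.4 normalised tags (chr7:25914494-25914994) and an IRF4 peak of 108.9 (chr7:25915478-25915978), with centres 984 bp apart. An IRF4 peak centre lay within 1000 bp of 3 of the 112 IRF8-alone peaks, within 10000 bp of 16 and within 50000 bp of 26. Most IRF8-alone peaks thus had no IRF4 peak in their neighbourhood.

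Higher peaks were more often found in the list of the other factor. Of the 20 highest single-copy IRF8 peaks, 85% were in the IRF4 list, of the 50 highest 70%, and of all of them 52.5%. These shares count overlaps with the full IRF4 list, repeated sequence included. The highest of these IRF8 peaks (1268.3 normalised tags, nearest gene Gm5614) overlapped an IRF4 peak that was not single-copy. So did those nearest to Satl1 (98.3) and Gdi2 (80), also among the 20 highest. With sharing decided within single-copy peaks, 50.3% of the IRF8 peaks were shared. For IRF4 the shares were 25% of the 20 highest, 15% of the 100 highest and 3.6% of ranks 501 to 1000. High IRF4 peaks were nevertheless mostly absent from the IRF8 list: of the 34 single-copy IRF4 peaks of at least 100 normalised tags, 7 (20.6%) were in it. Of the 16 single-copy IRF8 peaks of at least 50 normalised tags, 15 (93.8%) were in the IRF4 list, with the Erap1 promoter as the exception.

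**Figure D1:**
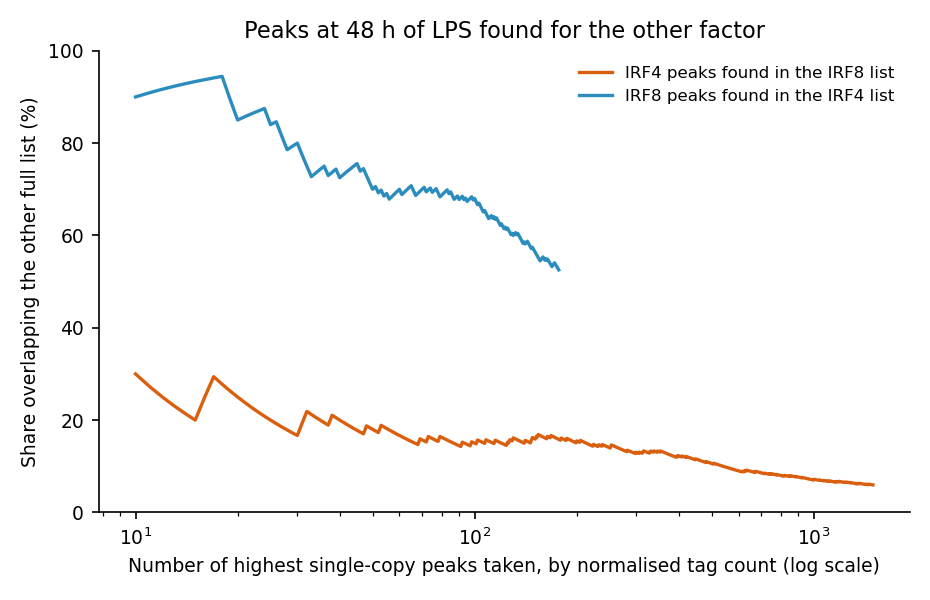
Share of the highest single-copy peaks of each 48 h list that overlapped the full list of the other factor (vertical axis, %), against the number of peaks taken by normalised tag count (horizontal axis, log scale). The IRF8 line falls from 85% of the 20 highest peaks to 52.5% of all, and the IRF4 line from 25% to 5.96%.

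With lists cut to the same length the shares fell. The 234 highest peaks of each list had 54 in common (23.1%, 17.8 to 29.0), and the 177 highest single-copy peaks had 28 (15.8%, 10.8 to 22). The 20 highest single-copy peaks of each list had 3 in common (15%, 3.21 to 37.9). A peak missing from a list is not a place without binding, since the lists give no tag number for places that were not called.

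AP-1 sites marked the peaks of IRF4 alone. Within 100 bp of the centre, 30.1% of all placed IRF4-alone peaks held an AP-1 site against 6.42% of IRF8-alone peaks, a difference of 23.6 percentage points (95% Newcombe interval 17.0 to 27.7). Among single-copy peaks the share was 30.6% for IRF4 alone (430 of 1405), 14.6% at shared places (13 of 89) and 8.33% for IRF8 alone (7 of 84). In the flanks of these peaks, 2000 bp away, it was 4.06%, 3.93% and 2.41%, and in 51164 windows spread evenly over the genome 3.18%. Shared places held fewer AP-1 sites than IRF4-alone peaks by 16.0 points (6.89 to 22.4). The order was the same between lists of equal length: among the 149 unshared peaks of the 177 highest single-copy peaks, AP-1 lay under 38.3% for IRF4 and 10.7% for IRF8.

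The 2 AP-1-IRF composite elements were infrequent in all classes. AICE1 lay under 55 single-copy IRF4-alone peaks (3.91%), 1 shared place and no IRF8-alone peak, where 0 of 84 leaves an upper limit of 4.30%. Its differences of IRF4 alone from shared places (2.79 points, -2.26 to 4.26) and from IRF8 alone (3.91 points, -0.55 to 5.06) had intervals that include 0. AICE2 lay under 1.92% of IRF4-alone peaks and under 6 of 89 shared places (6.74%), a difference of -4.82 points (-12.0 to -1.10), and under 2 of 84 IRF8-alone peaks. The shared AICE2 places were those of Tcfeb, Cd83, Gpr15, Kif3c, Gnptab and Bzrap1. Both elements were rare elsewhere, at 0.0528% and 0.0371% of genome windows.

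The EICE was common in all classes. It lay under 14.4% of single-copy IRF4-alone peaks, 28.1% of shared places and 22.6% of IRF8-alone peaks, against 2.23% of genome windows. IRF4-alone peaks held it less often than shared places, with a difference of -13.7 points (-24.0 to -5.21). Between IRF4-alone and IRF8-alone peaks the difference was -8.24 points among single-copy peaks (-18.4 to -0.37) and -3.40 over all placed peaks (-11.8 to 2.87), an interval that includes 0. Seen from the motif in the single-copy IRF4 list, 12.3% of peaks with an EICE and no AP-1 site were shared (25 of 204). Of those with an AP-1 site and neither EICE nor ISRE, 2.99% were (12 of 402). In the single-copy IRF8 list the order was the opposite, 57.1% (24 of 42, 41.0 to 72.3) and 77.8% (14 of 18, 52.4 to 93.6). These last intervals overlap.

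The ISRE core was more frequent under IRF8-alone peaks. It lay under 11.0% of them and 4.70% of IRF4-alone peaks over all placed peaks, a difference of -6.31 points (-13.6 to -1.55). Among peaks of at least 30 normalised tags the difference was -24.1 points (-41.7 to -11.1), with sharing decided anew within those peaks. The IRF8-alone class then took in shared places with a lower IRF4 peak, such as the ISRE place of Il2rb (26.5 for IRF4, 36.6 for IRF8). Single-copy shares were 10.7% for IRF8 alone (9 of 84), 4.70% for IRF4 alone and 3.37% at shared places, with 3.30% of genome windows. Over the whole 500 bp peak the difference was -1.46 points (-9.08 to 3.69), so it rests on matches near the centre. The octamer ATGCAAAT lay under 66 of 1405 single-copy IRF4-alone peaks (4.70%), 1 of 89 shared and 0 of 84 IRF8-alone peaks, a difference between the latter classes of 4.70 points for IRF4 alone over IRF8 alone (0.21 to 5.93).

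For other elements the intervals of the differences between these classes included 0. The RUNX site TGTGGT lay under 23.6%, 28.1% and 23.8% of single-copy IRF4-alone, shared and IRF8-alone peaks, against 13.8% of genome windows. The ETS site GAGGAAGT lay under 7.97%, 4.49% and 4.76%, against 1.18% of genome windows. More than 50% of each class held none of AP-1, EICE and ISRE: 53.7%, 55.1% and 64.3% in the same order.

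**Figure D2:**
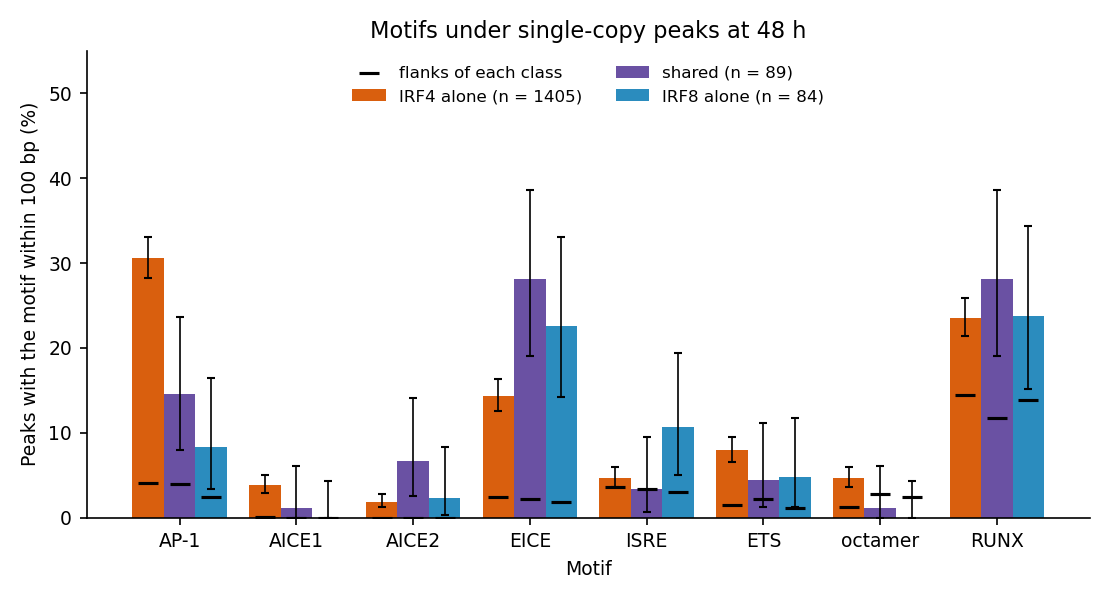
Share of single-copy 48 h peaks with each motif within 100 bp of the centre (vertical axis, %), for peaks of IRF4 alone, shared places and peaks of IRF8 alone, with 95% exact intervals and the share in the flanks as black dashes. AP-1 is highest for IRF4 alone (30.6%), the EICE at shared places (28.1%) and the ISRE for IRF8 alone (10.7%).

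Inside the EICE, the 2 bases between GGAA and GAAA differed in frequency between the factors. The sequences above were picked to show both forms, and each form occurred under peaks of either factor alone. Of 202 single-copy IRF4-alone peaks with an EICE, 98 had CT there (48.5%, 41.4 to 55.6) and 47 had GT (23.3%, 17.6 to 29.7). Of 19 such IRF8-alone peaks, 2 had CT (10.5%, 1.30 to 33.1) and 12 had GT (63.2%, 38.4 to 83.7). The difference was 38.0 points for CT (16.0 to 48.2) and -39.9 points for GT (-58.4 to -16.9). In genome windows with an EICE, 3.68% had CT and 10.6% had GT, so that both were more frequent in peaks. This property was picked out after its values were seen.

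The 72 h libraries, which the 48 h choice did not use, gave the same order. The IRF8 list at 72 h names its tags, in its header, as those of replicate 2, and what this means for its values is not given in the sources used here. Single-copy peaks of IRF4 alone at 72 h had CT in 44.3% and GT in 27.1% of 140 EICEs, and those of IRF8 alone had CT in 14.5% and GT in 48.6% of 138. Leaving out every place found in a 48 h list, CT was at 32.3% for IRF4 (20 of 62) and 9.71% for IRF8 (10 of 103), a difference of 22.5 points (10.0 to 35.7), and GT at 25.8% and 51.5%, a difference of -25.6 points (-38.9 to -10.3). Shared places lay between, with CT in 9 and GT in 8 of 25 EICEs at 48 h. At those places the median log2 ratio of IRF8 over IRF4 was -0.57 at CT and -0.69 at GT. At EICE places shared at 72 h it was -0.02 at CT (31 places) and 0.16 at GT (27 places), the opposite order, and neither difference was tested.

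At shared places IRF4 carried the higher normalised tags, on the authors' scaling by library total. Over the 89 single-copy shared places the median was 50 normalised tags for IRF4 (26.5 to 247.3) and 29.7 for IRF8 (20.6 to 153.1). The median log2 ratio of IRF8 over IRF4 was -0.61 (quartiles -1.04 and -0.16), a 1.52-fold difference, and IRF4 was higher at 72 of 89 places; scaled by the tags in peaks instead, the median turned to 1.55. Among peaks of at least 30 normalised tags it was -0.24. The direction over all places thus depends on what is held equal between the libraries, and a ratio is best read against the median of its fellow places. At the 33 shared places in repeated or unplaced sequence the median log2 ratio was nearer to 0, at -0.31.

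Tags differed between the libraries at 9 of 89 single-copy shared places (10.1%), all with more IRF4 tags (two-sided exact binomial test, Benjamini-Hochberg adjusted p under 0.05). No place was called with more IRF8 tags (0%). By the same test without adjustment, 21 places had a p under 0.05 with more IRF4 tags and 0 with more IRF8 tags. Scaled to the median ratio, 2 places were called with more IRF4 tags.

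The widest gap was in an intron of Cdk8, the kinase of the Mediator complex, where IRF4 carried 247.3 normalised tags (95% Poisson interval 197 to 306) and IRF8 52.6 (33.3 to 78.9). This was 4.70-fold (exact binomial test, adjusted p = 2.26e-11). At 72 h the same place carried 191.2 for IRF4 and 97.9 for IRF8.

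Another 3 of the 9 lay outside genes. A place 183.5 kb from Samd9l, an interferon-induced gene, carried 117.8 for IRF4 and 34.3 for IRF8, 3.44-fold (exact binomial test, adjusted p = 4.81e-04). Upstream of Ezh2, the histone H3 lysine methyltransferase of the Polycomb repressive complex, the values were 100.1 and 29.7 (3.37-fold). Near Axin2, a feedback inhibitor of Wnt signalling, they were 194.3 and 89.1 (2.18-fold), and both factors stood high there at 72 h too, at 196.5 and 166.4. The last 2 had the same adjusted p of 0.00186 by the exact binomial test.

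A further 4 called places had larger adjusted p-values. Upstream of Sykb, the annotation's name for the tyrosine kinase SYK of B cell receptor signalling, IRF4 carried 76.5 and IRF8 25.1. The same pair of values, 76.5 and 25.1, stood in an intron of Phactr2, a regulator of actin and of a phosphatase. An AP-1 site in an intron of A4galt, the enzyme that makes the glycolipid CD77 of germinal centre cells, carried 85.4 and 29.7. These 3 shared an adjusted p of 0.0169 by the exact binomial test, and a place in Htr7, a serotonin receptor gene, had 70.7 and 25.1 with an adjusted p of 0.0344. The A4galt, Sykb and Htr7 places were also GC intervals.

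The highest single-copy shared places held few of the known elements. Next to Pak3, a p21-activated kinase, IRF4 carried 179.6 and IRF8 153.1 normalised tags. In Cdk5rap2, a centrosome gene, the values were 100.1 and 84.6, near Vmn1r238, a pheromone receptor gene, 94.2 and 86.8, and in 4930468A15Rik 73.6 and 77.7. None of these 4 passed the test (exact binomial test, adjusted p from 0.682 to 1). All 4 were in both 72 h lists, at 82.3 to 175.3 for IRF4 and 84.8 to 205.5 for IRF8. Neither these 4 nor the places of Cdk8, Axin2 and Samd9l, which are also among the 8 highest, held an AP-1 site, EICE or ISRE within 100 bp of the IRF4 centre.

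**Figure D3:**
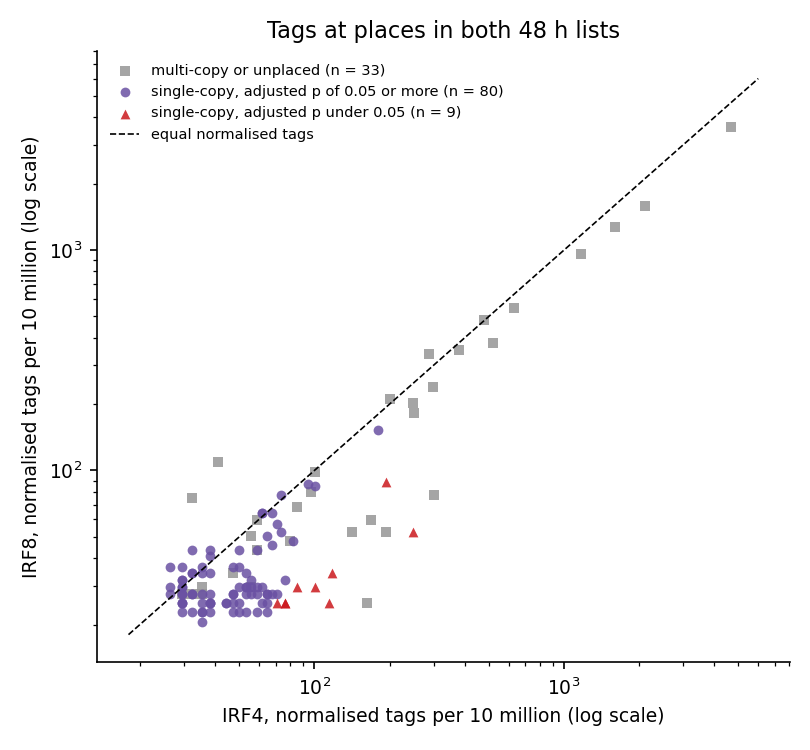
Normalised tags (per 10000000 library tags) of IRF4 (horizontal axis) and IRF8 (vertical axis) at the 122 shared places, both axes on a log scale, with the line of equal values. The 9 called single-copy places (triangles) lie below the line, and repeated or unplaced places (squares) reach the highest values in both libraries.

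Shared places with an AP-1 site carried more IRF4 tags, as did most shared places on the scaling by library total. This held at all 13 of them, against 72 of all 89, with a median log2 ratio of -0.83 against -0.61. The difference of the medians was not tested. Of the 13, 2 were called, among them that of A4galt. The AP-1 places with AICE2 ranged widely and included the most even ones. In an intron of Tcfeb, which encodes TFEB, a regulator of lysosome genes, 0.39 kb upstream of a TSS, IRF4 carried 67.7 and IRF8 64.0 (log2 ratio -0.08), with 42.5 and 97.9 at 72 h. Upstream of Cd83, an activation marker of B cells that stabilises MHC class II, they carried 50 and 43.4 (log2 ratio -0.20). The Cd83 place was in the IRF4 72 h list at 34.5 and the GC list, but not the IRF8 72 h list. At Gpr15, a chemoattractant receptor gene, the values were further apart, 64.8 and 27.4 (exact binomial test, adjusted p = 0.0808). The AICE2 place of Kif3c had 50 and 22.9 (log2 ratio -1.13).

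The 25 shared EICE places had a median log2 ratio of -0.61, the same as all places, and none was called. In an intron of Pax5, the factor that maintains B cell identity, IRF4 carried 76.5 (50 to 112) and IRF8 32.0 (17.5 to 53.7; exact binomial test, adjusted p = 0.0695). At 72 h the IRF8 value was the higher, 104.4 against 92.9, and the place was a GC interval. Downstream of Myc, the growth regulator, 12.3 kb from the TSS, the values were 64.8 and 25.1 (exact binomial test, adjusted p = 0.0808), with 35.9 for IRF8 and no IRF4 peak at 72 h. These 2 places hold the CT form shown above.

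Other EICE places, named after their values were seen, lay near immune genes and carried fewer IRF4 tags than that of Pax5. At the promoter of H2-DMb2, a chain of the MHC class II peptide exchanger, IRF4 carried 35.3 and IRF8 22.9. Near Psmb9, an immunoproteasome subunit, the values were 53.0 and 22.9. Near Icosl, the ligand of the T cell costimulator ICOS, they were 38.3 and 25.1, and in an intron of Ripk2, a kinase of innate signalling, 35.3 and 27.4. All 4 places were in both 72 h lists, and the Ripk2 place carried 75 for IRF8 against 31.9 for IRF4 there, with no test.

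IRF8 was the higher library at 17 single-copy shared places, none of them called. The largest ratio was upstream of Il2rb, the beta chain of the receptors for IL-2 and IL-15, where an ISRE place carried 26.5 for IRF4 and 36.6 for IRF8 (log2 ratio 0.46; exact binomial test, adjusted p = 0.798). It was in the IRF8 72 h list at 52.2 and the GC list, and not in the IRF4 72 h list. A place 33.4 kb upstream of Morc3, a chromatin gene, had 32.4 and 43.4 (log2 ratio 0.42), with the same presence in the other lists. The EICE place of Pag1, an adaptor that restrains SRC family kinases, had 32.4 and 34.3, and its IRF8 value at 72 h was 52.2 against 31.9 for IRF4.

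Most of the highest single-copy peaks of IRF4 alone held an AP-1 site, while the highest of IRF4 alone over all peaks carried 423.9 normalised tags. Upstream of Grap, an adaptor of the GRB2 family in lymphocyte receptor signalling, IRF4 carried 247.3 normalised tags (197 to 306), at a distance of 8.54 kb from the TSS. It was found again at 72 h with 85 for IRF4 and 32.6 for IRF8, and in the GC list. Enpp6, a choline phosphodiesterase gene, had an AICE1 peak 45.4 kb upstream with 185.5, then 111.5 and 48.9 at 72 h. Ankrd55 (156.0), Hcls1 (144.2), which encodes a cortactin relative of blood cells, and Malt1 (141.3), the paracaspase that links antigen receptors to NF-kappaB, followed with AP-1 sites, and none of these 3 was in the IRF8 72 h list.

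Of the remaining 5 of the highest 10 single-copy peaks of IRF4 alone, 2 held an AP-1 site. Sik3, a salt-inducible kinase gene, had 138.4 and AA467197 135.4, both with AP-1 sites. Gm9034 had 135.4 with an EICE, while Gm4795 (141.3) and Filip1l (126.6) held none of the 3 elements. Of the 25 highest, 16 held an AP-1 site and 6 an EICE, 25 overlapped IRF4 peaks at 72 h and 11 IRF8 peaks at 72 h. Among these 25 were an EICE place at Bach2, a repressor of the plasma cell programme, with 120.7 at 48 h and 66.4 and 68.5 for IRF4 and IRF8 at 72 h, and the promoter of Stat3, a cytokine signal transducer, with 100.1. Il15, a cytokine gene, had 103.0 with an EICE of the CT form and an AP-1 site.

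Single-copy peaks of IRF8 alone reached 64 normalised tags, and 5 of the highest 10 held an ISRE or EICE, while the highest over all IRF8-alone peaks carried 388.5. At the promoter of Erap1, the aminopeptidase that trims peptides for MHC class I, IRF8 carried 64.0 normalised tags (42.5 to 92.5) over the ISRE shown above, 0.013 kb from the TSS. The place carried 143.5 in the IRF8 72 h list, was a GC interval and was in neither IRF4 list. Ascc1, a transcription coactivator gene, had an EICE peak of 43.4 (68.5 for IRF8 at 72 h). Rhebl1, a RAS-like gene, had an ISRE promoter peak of 38.8 (35.9 for IRF8 at 72 h). A peak of 41.1 with EICE and ISRE lay at 4931440P22Rik, where IRF4 had the higher value at 72 h, 55.8 against 45.7 for IRF8. Gm4968 had 36.6 with both elements, and 91.3 for IRF8 and 23.9 for IRF4 at 72 h.

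The other 5 of the highest 10 of IRF8 alone held none of the 3 elements. The promoter of H2-Q4, a class I gene of the MHC, had 36.6, and 39.1 and 26.6 for IRF8 and IRF4 at 72 h. Rapgef4 (45.7), Vmn1r2 (38.8), Zfp36l2 (36.6) and Galr1 (36.6) had no peak in either 72 h list. Among the 25 highest of IRF8 alone, 13 held none of AP-1, EICE and ISRE, and 3 of those 13 were in the IRF8 72 h list. Lower promoter peaks of IRF8 alone stood at Il12a (29.7), a subunit of IL-12, and Il12rb1 (27.4), a subunit of its receptor, with 52.2 and 35.9 for IRF8 at 72 h.

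Many peaks of IRF8 alone with an EICE or ISRE were found again at 72 h. There were 26 of them in single-copy sequence, 18 were in the IRF8 72 h list, and 17 of these 18 carried more normalised tags there. Of all single-copy IRF8-alone peaks, 28 of 84 were in that list and 27 of the 28 carried more normalised tags there, so the higher value was not particular to these elements. Ifnar2, a chain of the type I interferon receptor, had 25.1 at 48 h and 81.6 at 72 h, Klf6, a zinc finger factor gene, 34.3 and 65.2, and Mnt, an antagonist of MYC, 27.4 and 55.5.

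The later lists separated the classes. Of single-copy IRF4-alone peaks 30.5% overlapped IRF4 peaks at 72 h and 12.2% IRF8 peaks at 72 h, of IRF8-alone peaks 9.52% and 33.3%, and of shared places 70.8% and 77.5%. The IRF4-alone share exceeded the IRF8-alone share by 20.9 points in the IRF4 72 h list (12.4 to 26.2) and differed by -21.2 points in the IRF8 72 h list (-31.9 to -11.8). The same antibody joins each 48 h list to its 72 h list, so factor and antibody cannot be told apart here. Of IRF4-alone peaks 855 (60.9%) and of IRF8-alone peaks 53 (63.1%) were in none of the other 3 lists, against 7 of 89 shared places (7.87%).

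The GC list did not part the factors. It held 11.5% of IRF4-alone and 15.5% of IRF8-alone single-copy peaks, a difference of -3.95 points (-13.3 to 2.51), and 32.6% of shared places (23.0 to 43.3). Shared places exceeded IRF4-alone peaks there, by a difference of -21.1 points for IRF4 alone (-31.5 to -12.0). Shared places also stood higher in the IRF4 library (median 50 against 35.3 for IRF4 alone), and the part of height in these shares was not tested.

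Among single-copy IRF4-alone peaks, those with an EICE were in the 72 h lists more often than those with an AP-1 site. Of 202 IRF4-alone peaks with an EICE, 56.4% overlapped IRF4 peaks at 72 h and 31.7% IRF8 peaks at 72 h. Of 430 with an AP-1 site, 26.5% and 6.51% did. Of 25 shared EICE places, 21 overlapped IRF4 peaks and 22 IRF8 peaks at 72 h, and of 13 shared AP-1 places 10 and 10. Among IRF8-alone peaks, 14 of 19 with an EICE (48.8 to 90.9%), 6 of 9 with an ISRE (29.9 to 92.5%) and 3 of 7 with an AP-1 site (9.90 to 81.6%) overlapped IRF8 peaks at 72 h. These last intervals overlap widely.

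**Figure D4:**
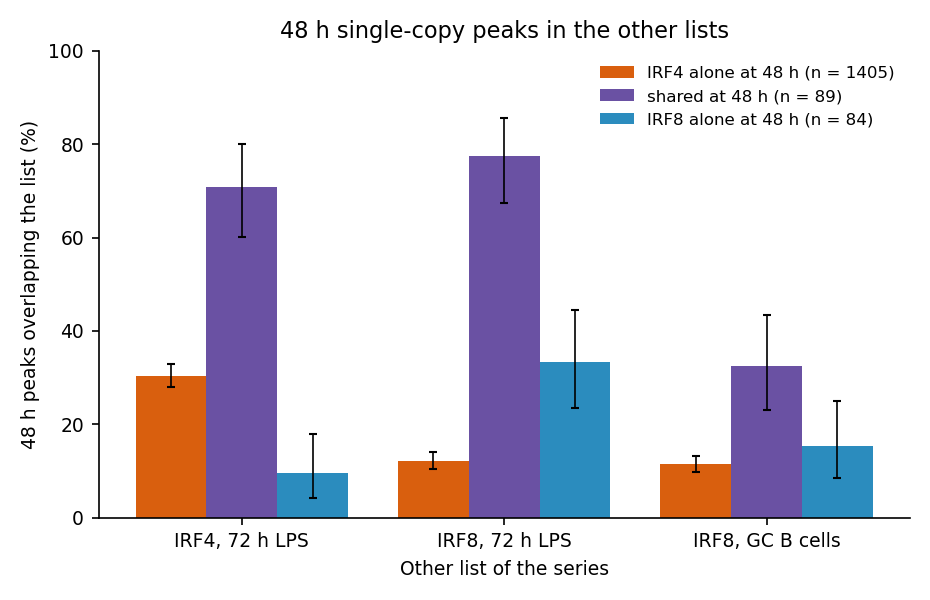
Share of single-copy 48 h peaks (vertical axis, %) that overlapped the IRF4 72 h, IRF8 72 h and GC lists, for peaks of IRF4 alone, shared places and peaks of IRF8 alone, with 95% exact intervals. IRF4-alone and IRF8-alone peaks change order between the 72 h lists (30.5% and 9.52%, then 12.2% and 33.3%), and shared places are highest in each list.

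The 2 factors lay at like distances from genes. The median distance to the nearest protein-coding TSS was 16.0 kb for single-copy IRF4-alone peaks, 18 kb for shared places and 14.2 kb for IRF8-alone peaks. Promoter peaks, within 1 kb of a TSS, were 9.32%, 5.62% and 11.9%. Over all placed peaks the promoter share of IRF4 alone differed from that of IRF8 alone by -2.67 points, with an interval (-10.2 to 2.42) that includes 0. Among peaks of at least 30 normalised tags, with sharing decided anew within them, the difference was -11.2 points, and its interval (-28.2 to -0.90) excludes 0. Introns held 50.1%, 44.9% and 42.9% of the single-copy peaks, and the centre of none of the 89 shared places lay in an exon.

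The 5 single-copy shared promoter peaks were those of Tcfeb, Irf5, Aff3, H2-DMb2 and Itgb1. At Irf5, a relative of both factors that acts downstream of Toll-like receptors, IRF4 carried 38.3 and IRF8 25.1 normalised tags. At Aff3, a lymphoid nuclear factor gene, the values were 35.3 and 20.6. The highest promoter peaks of IRF4 alone were at Stat3 (100.1), Zfp91 (79.5) and Cnpy3 (76.5), the last a chaperone of Toll-like receptors, and Tlr9, the receptor for CpG DNA, had 58.9.

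**Figure D5:**
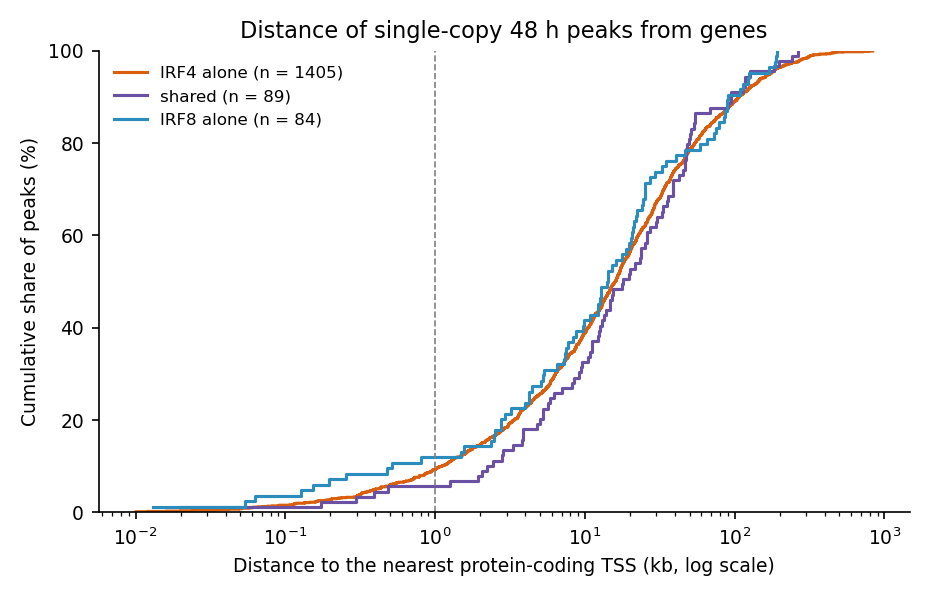
Cumulative share of single-copy 48 h peaks (vertical axis, %) against the distance of the centre to the nearest protein-coding TSS (horizontal axis, kb, log scale), with a dashed line at 1 kb. The 3 curves run close together, with medians of 16.0, 18 and 14.2 kb for IRF4 alone, shared places and IRF8 alone.

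By nearest gene the lists met slightly more often than by place. Within 50 kb, IRF4 peaks had 1071 nearest protein-coding genes and IRF8 peaks 176, with 107 in common, 60.8% of the IRF8 genes and 9.99% of the IRF4 genes. A shared place lay near 92 of the 107, and 15 had separate places only. Among the latter was S1pr1, a receptor that guides lymphocyte exit, with an AICE1 peak of IRF4 (50) 36.5 kb downstream and an EICE peak of IRF8 (25.1) 14.3 kb upstream of its TSS. Btla, an inhibitory receptor gene, likewise had an AP-1 peak of IRF4 (58.9) in an untranslated exon and an EICE peak of IRF8 (25.1) in an intron.

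Genes with 4 or more IRF4 peaks had none for IRF8, but some with 3 did. Filip1l, Gnptab, Nfkb1, Rere and Zbtb20 had 3 IRF4 peaks and 1 IRF8 peak each, and P4ha2 had 3 and 2. Of all genes near IRF4 peaks, 9.99% were also near an IRF8 peak, so no lack of IRF8 is read from the genes named here. Of 127 genes with 2 or more IRF4 peaks, 23 had 3 or more, and Bach2 and Tg, the thyroglobulin gene, had 6 each with 0 IRF8 peaks. Foxp1, a regulator of mature B cells, had 4 and likewise 0 for IRF8, the highest an AP-1 peak of 103.0. For IRF8, 4 genes had 2 or more peaks.

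Genes of the B cell programme were the nearest genes of peaks of both factors in a larger share than all genes were. This and the following gene lists were chosen with earlier results of these data known, so no enrichment is read from their shares. Of 24 B lineage and germinal centre factors in the annotation, 15 were the nearest gene of an IRF4 peak (62.5%) and 3 of an IRF8 peak (12.5%), Pax5, Id2 and Pou2f2. Over all 22238 protein-coding genes the shares were 4.82% and 0.791%, so more genes lay near IRF4 than near IRF8 peaks in general, and no lean to IRF4 is read from this or the following lists. Ebf1, an early B cell factor, had IRF4 peaks of 76.5 and 32.4, and Mef2c 76.5 and 32.4. Irf4 itself had 2 IRF4 peaks upstream (53.0 with an ISRE and 29.4 with an EICE), and Irf8 had 1, of 41.2 at 10.8 kb upstream, which was a GC interval. Id2, an inhibitor of E proteins, had a shared AP-1 place 47.6 kb upstream with 53.0 and 29.7.

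Plasma cell genes were near IRF4 peaks in 5 of 13 cases (38.5%) and near an IRF8 peak in 1 (7.69%), against 4.82% and 0.791% of all genes. Prdm1, which encodes the plasma cell regulator BLIMP1, had an intronic IRF4 peak of 44.2 with an ISRE that was in no other list. Zbtb20, a plasma cell survival factor gene, had 3 IRF4 peaks, of which 1 was shared (38.3 and 27.4). Atf6, Cd93 and Slamf7 had IRF4 peaks of 58.9, 29.4 and 44.2.

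The AP-1 family had near even counts for the factors, at 3 (23.1%) and 2 genes (15.4%), against 4.82% and 0.791% of all genes. Of its 13 genes, Batf (38.3), Batf3 (38.3) and Atf3 were near IRF4 peaks, and Fos (20.6) and Atf3 near IRF8 peaks. Atf3 had a shared EICE place with 32.4 and 22.9, found in all 3 other lists. Of 24 B cell receptor and co-receptor genes matched by name, 10 were near IRF4 peaks and 2, Cd83 and Pik3ap1, near IRF8 peaks. As shares these counts were 41.7% and 8.33%, against 4.82% and 0.791% of all genes. These counts leave out Syk, which the annotation names Sykb and which had a shared place with 76.5 for IRF4 and 25.1 for IRF8. Inpp5d, the inositol phosphatase SHIP, had an EICE peak of IRF4 (70.7) that was in all 3 other lists, and Blnk, an adaptor of the receptor, a peak of 53.0.

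Of the 6 gene lists, that of interferon and MHC genes had the closest shares for both factors. Of 32 in the annotation, 4 were near IRF4 peaks (12.5%) and 3 near IRF8 peaks (9.38%), against 4.82% and 0.791% of all genes. These counts are small and those of the AP-1 family are close too, so nothing is read from this order. H2-DMb2 and Psmb9 were shared, Erap1 was near an IRF8 peak alone, and Gbp2, an interferon-induced GTPase, was near an IRF4 peak alone (29.4, with ISRE and AP-1). Of 18 NF-kappaB and survival genes, 6 were near IRF4 peaks (33.3%) and 2 near IRF8 peaks (11.1%), against the same shares of all genes. These 2 were Myc and Nfkb1, an NF-kappaB subunit gene with a shared intronic place of 61.8 and 25.1, while Mcl1, a survival gene, had IRF4 peaks of 35.3 and 26.5.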

How the data were processed

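ChIP-seq peak lists were compared; each group held 1 library. Reads were aligned to mm9, per the labels. Bowtie2 and BWA stand in the submitters' processing notes with no version, the series' design text names others, and the aligner of each library could not be settled. The authors called the LPS lists with HOMER findPeaks, per the file headers, with peaks of 500 bp, at least 1000 bp apart, a false discovery rate of 0.001, no more than 1 tag counted at a position, and a fold of 4 and a Poisson p-value of 1e-04 against the surrounding 10000 bp. The signal of a deposited peak is its normalised tag count per 10000000 library tags, set by the authors. The score (tags), the ratios (fold over the local region and over clonal reads), the p-value and the focus ratio, a fraction, are the authors' values and entered no test. The deposited GC list gives BED positions, called with MACS per the series' design text, so caller and cell type cannot be told apart there.

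Multiplying by the header totals gave whole tags within 0.05 for 100% of peaks; these entered the Poisson intervals and exact binomial tests, adjusted over 89 places. Genes are those of GENCODE M1 on NCBIM37 (mm9), by the nearest protein-coding TSS. A peak was single-copy when the median word of 24 bases within 100 bp of its centre occurred once in the genome; 9 IRF4 and 8 IRF8 peaks had no placed sequence and 70 and 49 were repeated. Shares carry 95% Clopper-Pearson intervals and differences Newcombe intervals, for counting error only, since tags are not independent molecules. Peaks were treated as a description, not as replicates. Scripts were tested on simulated data.

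The places, gene lists and alternatives were chosen with earlier results of these data known. Named by rule were the 8 highest single-copy shared places, the 10 highest peaks of each factor alone, the called places, the highest peak and the gene list members with peaks; other genes were chosen after their values were seen. Some places and list members that the rule names are not reported here. Spi1, Jchain, Mzb1, Syk and Nlrc5 did not match the annotation by name. Alternatives changed the overlap rule, motif window, promoter and gene distance, list length, minimum height, repeated sequence and scaling. Python 3.11.15, numpy 2.4.6, pandas 2.3.3, scipy 1.17.1, pysam 0.24.0, numba 0.67.0 and matplotlib 3.10.9 were used.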

Additional observations from a re-analysis of the deposited data

How the results depend on the processing

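Of 51 alternatives over 10 results, 31 stayed near the main value, 19 moved and 1 turned the direction. Near meant within the 95% interval of the main value or, for counts of genes and of called places, within a set fold of it. Scaled by tags in peaks (27716 and 8004) in place of library totals, the median log2 ratio of IRF8 over IRF4 at single-copy shared places was 1.55, with 0 places called with more IRF4 tags and 65 with more IRF8 tags, by construction of that scaling. Over all shared places 21 and 1 were called. With the median ratio as scale 2 were called with more IRF4 tags, and 2 among places with a motif, an alternative chosen after seeing the data. With at least 30 normalised tags the median was -0.24. With sharing decided anew within those peaks, the shared share was 63.3% of the IRF8 and 4.83% of the IRF4 list. The IRF4-alone minus IRF8-alone difference was then 27.8 points for AP-1, -24.1 for the ISRE and -11.2 for promoters (-28.2 to -0.90). With lists of equal length the shared share was 23.1% of each, the AP-1 difference 29.5 points and the genes near both 44. With single-copy peaks alone the shared share of the IRF4 list was 5.96%. With whole peaks the ISRE difference was -1.46 points, and within 10 kb 46 genes were near both. Apart from the scaling by tags in peaks, the cause was not tested. The interval of the EICE difference included 0 in each of the 6 alternatives run for it; among single-copy peaks it was -7.21 (-17.1 to 0.35) with sharing decided within those peaks and excluded 0 only with sharing decided on the full lists. The promoter difference turned to 0.14 points (-8.15 to 6.28) at a wider promoter limit. No paired analysis was possible because each group has 1 library and the labels give no replicate numbers. Peaks of 8 or 9 tags set the floor of the lists, so lower binding was not detectable at this depth.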
